A study of Mus musculus with 7 samples.

Results

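The genes described here are 10 marker genes of adipose tissue macrophages (Gpnmb, Lgals3, Trem2, Cd68, Itgax, Adgre1, Mrc1, Cd163, Marco and Csf1r), taken by gene name from a count table of 55487 genes. Their RNA was read in brown adipose tissue, which burns fat to make heat, from 7 mice of the NOD/ShiLtJ strain, which develops autoimmune diabetes. The CB-100 group (4 mice) received, under the skin for 7 days at 1.5 mg per kg of body weight, the part above 100 kDa of a buffer conditioned by brown adipocytes, which the treatment label names imBAT conditioned buffer. The sham group (3 mice) received KRBH buffer, and the labels give it no schedule of its own. Mice of both groups had a blood glucose of 190 to 230 mg/dL, and RNA was isolated 2 to 8 weeks later. The labels give neither the week nor the age of a mouse. Titles have the code nd for each CB-100 mouse and d for each sham mouse, which the labels do not explain, and what it marks cannot be told apart from the injection.

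In brown fat of CB-100 mice relative to sham mice, the macrophage receptors Csf1r and Mrc1 had the estimates nearest 0 of the tested markers, log2 changes of -0.13 (95% interval -0.82 to 0.56) and -0.07 (95% interval -0.80 to 0.67). Gpnmb and Lgals3, which lipid-laden macrophages express strongly, had the lowest estimates, -1.84 and -1.36 on the log2 scale, and neither passed the test. Of the 10 markers, 8 had enough counts to be tested and 0 of these 8 reached a Benjamini-Hochberg adjusted p of 0.05 in the quasi-likelihood test of edgeR, against 3.70% of all 16823 genes tested. By direction, 0 of 8 rose, against 1.42% of all genes, and 0 of 8 fell, against 2.28%. At an unadjusted p under 0.05 there were 2 of 8, Gpnmb and Lgals3, against 23.9% of all genes tested. DESeq2 called 1 of 8, Gpnmb, against 11.7% of all genes, and limma voom called 0 of 8, against 6.84%. Itgax and Marco had too few counts for the test.

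Macrophages live in fat as long-lived resident cells that depend on the growth factor receptor Csf1r, and carry scavenger receptors such as Mrc1 and Cd163 that take up glycoproteins and haemoglobin complexes. When adipocytes die or release much lipid, macrophages around them fill with lipid and turn on a programme of lysosomal and lipid-handling genes that depends on the receptor Trem2, with Gpnmb and Lgals3 among its best known genes. Brown fat uses its macrophages to clear material that its adipocytes discard. Several of these markers are also made by other cells, Itgax by dendritic cells, Gpnmb by melanocytes and Lgals3 by many epithelial and stromal cells.

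The upstream sequences of the members with the largest and the smallest estimated change, Gpnmb and Mrc1, are shown as the 250 bases before the RefSeq start on GRCm38.p6. Gpnmb lies at chr6:49036268-49036517 on the plus strand and Mrc1 at chr2:14229164-14229413 on the plus strand. Capitals mark matches, on either strand, to CATGTG or CACGTG, the E-box letters read by MITF and TFE factors, and to GAGGAA, the core letters of the site of the myeloid factor PU.1.
Gpnmb: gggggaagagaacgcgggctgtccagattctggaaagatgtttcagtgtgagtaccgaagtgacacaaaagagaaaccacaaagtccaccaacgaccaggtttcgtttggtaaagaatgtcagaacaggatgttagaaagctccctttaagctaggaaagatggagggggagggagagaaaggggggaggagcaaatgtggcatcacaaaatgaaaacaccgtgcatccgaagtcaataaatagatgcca
Mrc1: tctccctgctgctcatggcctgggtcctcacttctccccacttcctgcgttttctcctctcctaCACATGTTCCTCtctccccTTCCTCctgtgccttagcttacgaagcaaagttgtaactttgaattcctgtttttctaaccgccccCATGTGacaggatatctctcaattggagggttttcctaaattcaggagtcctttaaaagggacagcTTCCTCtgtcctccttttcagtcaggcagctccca

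The Gpnmb window held none of these letters, and the Mrc1 window held 2 matches to CATGTG and 3 to GAGGAA, of which 1 pair adjoined each other. A promoter window was taken for 8 of the 10 members, all but Adgre1 and Csf1r. RefSeq entries on chromosome 18, where Csf1r lies, were left out for the members but not for the promoters they are set against. Of those 8, 4 held GAGGAA (Trem2, Cd68, Mrc1 and Marco), against 23.3% of 32851 promoters of the same length, and 1 held CATGTG or CACGTG, against 17.6%. The letters are a description of these windows and were not tied to a change in level.

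Libraries held 10815101 to 28528471 counts, and levels are in CPM, the count of a gene relative to the TMM-scaled total of its library. Each group held 1 male by its Xist and Y-linked counts, replicate 3 in both. The share of counts from mitochondrially encoded genes was 22.3% to 36.3% in CB-100 and 14.3% to 22.8% in sham, and that of the small structural RNAs 7SL and 7SK was 9.54% to 14.4% in CB-100 and 5.89% to 8.35% in sham. Of the defining brown adipocyte genes, Cidea was at 499 ± 139 CPM in CB-100 mice and 589 ± 87.8 CPM in sham, and Ucp1, the uncoupling protein, was at 1402 ± 791 CPM in CB-100 mice and 354 ± 454 CPM in sham (SD, n = 4 and 3). The part of the RNA shares in the marker results was not tested. In bulk tissue, fewer macrophages and less of a transcript per macrophage cannot be told apart.

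Csf1r, the receptor for the growth factors CSF1 and IL-34 on which macrophages depend for survival, stood at 22.2, 42.4, 30.2 and 16.8 CPM in CB-100 replicates 1 to 4, against 30.9, 36.8 and 23.6 CPM in sham replicates 1 to 3. The sham values lay inside the span of the CB-100 values, with CB-100 replicate 2 the highest library and CB-100 replicate 4 the lowest. The log2 change was -0.13 (SE 0.30, 95% interval -0.82 to 0.56, edgeR adjusted p = 0.83), and it was 0.05 without CB-100 replicate 4 and 0.03 without sham replicate 2. The count of Csf1r is uncertain, being non-whole in 7 of 7 libraries, and Hmgxb3 overlaps it on the opposite strand (GRCm38 chromosome 18, 61100598 to 61132149).

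Adgre1 encodes F4/80, the surface receptor by which mouse macrophages are commonly counted. It was the only tested marker with an estimate above 0. Its level was 6.44, 10.3, 8.20 and 4.70 CPM in CB-100 libraries, with 4.22, 6.46 and 4.98 CPM in sham libraries. CB-100 replicates 2 and 3 lay above each sham library, while replicates 1 and 4 fell among them. Adgre1 had a log2 change of 0.50 (SE 0.29, 95% interval -0.16 to 1.17, edgeR adjusted p = 0.33).

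Cd68, a lysosomal glycoprotein of phagocytes, was read at 2.93, 4.29, 4.53 and 3.54 CPM in CB-100 libraries, against 5.36, 5.43 and 3.90 CPM in sham libraries. The groups overlapped only through sham replicate 3, the male, which lay among the CB-100 values. The mean was 3.82 ± 0.73 CPM in CB-100 (SD, n = 4) and 4.90 ± 0.86 CPM in sham (SD, n = 3), a log2 change of -0.36 (SE 0.24, 95% interval -0.91 to 0.19, edgeR adjusted p = 0.40). Adgre1 and Cd68, both used as general macrophage markers, thus had estimates on opposite sides of 0, each with an interval that included 0.

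**Figure D1:**
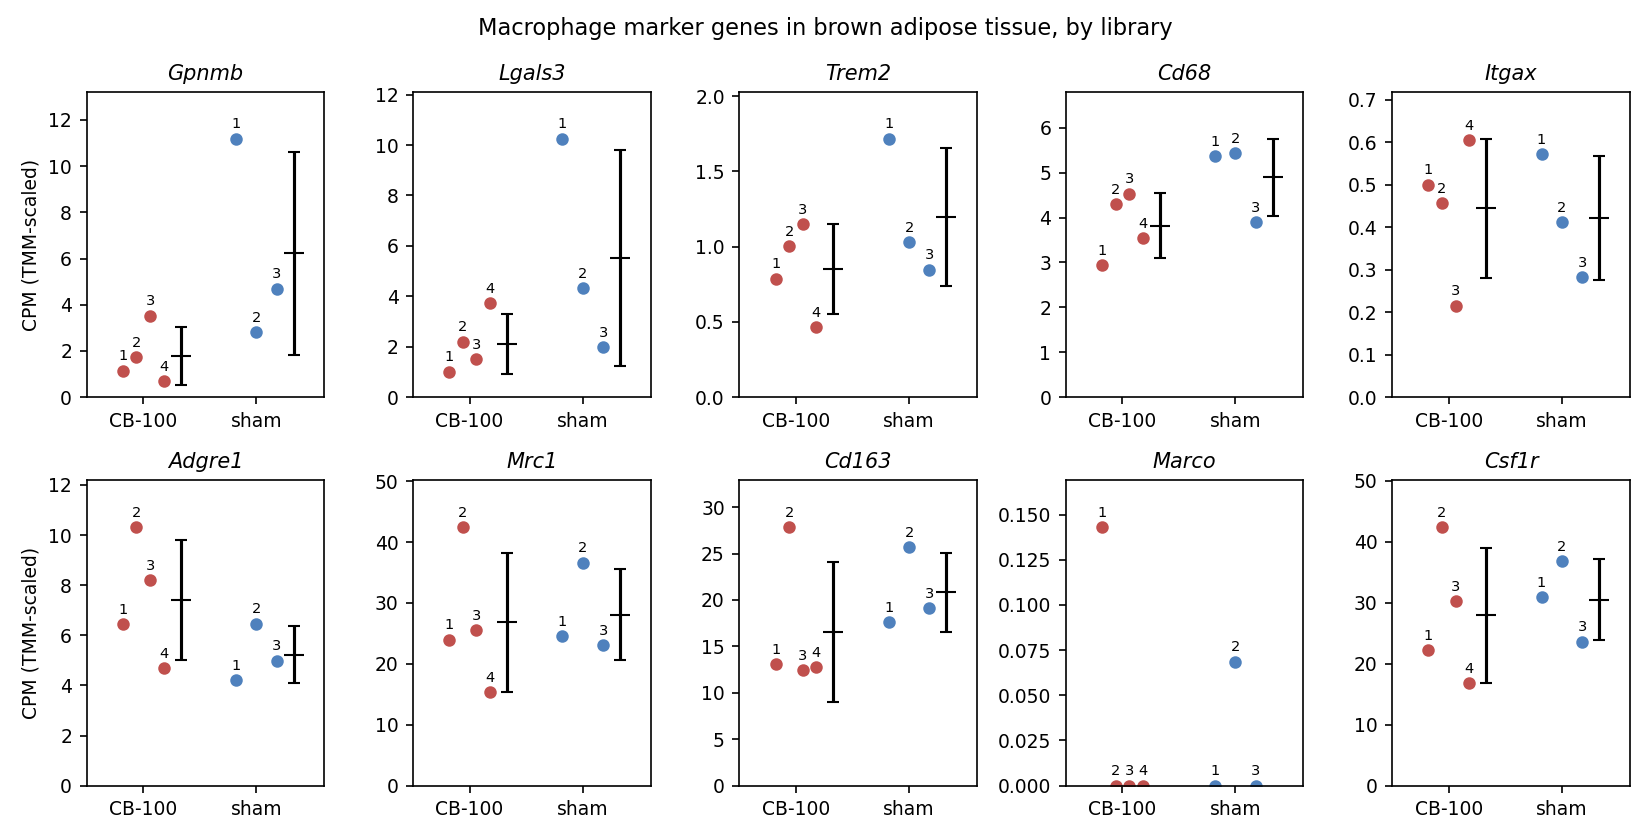
Levels of the 10 macrophage markers in each library, in TMM-scaled CPM on linear axes that start at 0. Points are libraries numbered by replicate (CB-100 in red, sham in blue), bars are mean ± SD (n = 4 CB-100, n = 3 sham), and no bar is drawn for Marco, which had at most 2 counts in a library. Gpnmb and Lgals3 are highest in sham replicate 1, at 11.2 and 10.3 CPM, and Mrc1, Cd163, Csf1r and Adgre1 are highest within each group in replicate 2.

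Among the scavenger receptors, Mrc1 (CD206, the mannose receptor of resident macrophages) stood at 24.0, 42.5, 25.5 and 15.3 CPM in CB-100, against 24.5, 36.6 and 23.0 CPM in sham. The sham values lay inside the wider span of the CB-100 values. Its log2 change was -0.07 (SE 0.32, 95% interval -0.80 to 0.67, edgeR adjusted p = 0.92), with 0.13 without CB-100 replicate 4 and 0.17 without sham replicate 2. Mir511 lies within Mrc1 on the same strand.

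Cd163, the receptor for haemoglobin bound to haptoglobin, was read at 13.1, 27.9, 12.4 and 12.7 CPM in the CB-100 mice, against 17.6, 25.7 and 19.1 CPM in the sham mice. CB-100 replicates 1, 3 and 4 lay below each sham library and replicate 2 above all of them. For Cd163 the log2 change came to -0.34 (SE 0.31, 95% interval -1.03 to 0.36, edgeR adjusted p = 0.54). It was -0.70 without CB-100 replicate 2 (edgeR adjusted p = 0.10) and -0.16 without sham replicate 2 (edgeR adjusted p = 0.83). The gene lies at 124304656 to 124330527 on chromosome 6 (GRCm38, plus strand).

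Marco, a scavenger receptor of macrophages that clear particles in lung and spleen, had 2 counts in CB-100 replicate 1, 1 count in sham replicate 2 and 0 in the other libraries. All 7 libraries were under the limit of 3 counts that a count of 0 allows, which is 0.14 to 0.27 CPM at these depths and covers counting error only, so no change was detectable. Itgax (CD11c), an integrin of dendritic cells and of macrophages in obese fat, had 7, 5, 3 and 13 counts in CB-100 and 11, 6 and 6 counts in sham. That is 0.50, 0.46, 0.22 and 0.60 CPM in CB-100 libraries, against 0.57, 0.41 and 0.28 CPM in sham, in overlapping ranges. With no filter on low counts, the log2 change of Itgax was 0.06 (edgeR adjusted p = 0.98).

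Of the lipid-associated markers, Trem2 is the lipid-sensing receptor that drives the programme. It stood at 0.79, 1.00, 1.15 and 0.47 CPM in CB-100, against 1.72, 1.03 and 0.85 CPM in sham, from 10 to 33 counts per library. Sham replicate 1 was the highest library and CB-100 replicate 4 the lowest, and the rest were mixed. Trem2 had a log2 change of -0.52 (SE 0.43, 95% interval -1.5 to 0.46, edgeR adjusted p = 0.50), and -0.16 without sham replicate 1.

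Gpnmb, a transmembrane glycoprotein of lipid-laden macrophages (GRCm38 chromosome 6, 49036546 to 49070929, plus strand), was measured at 1.14, 1.74, 3.52 and 0.70 CPM in CB-100, against 11.2, 2.82 and 4.70 CPM in sham. Sham replicate 1 stood far above the rest, and the groups overlapped through CB-100 replicate 3, the male, which lay above sham replicate 2. The mean was 1.78 ± 1.24 CPM in CB-100 (SD, n = 4) and 6.24 ± 4.39 CPM in sham (SD, n = 3). Its log2 change was -1.84 (SE 0.61, 95% interval -3.22 to -0.46, unadjusted p = 0.015, edgeR adjusted p = 0.11). DESeq2 gave -1.83 with an adjusted p of 0.0265, and over all alternatives the adjusted p ran from 0.0265 to 0.471. It was -1.11 without sham replicate 1 (edgeR adjusted p = 0.34).

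Lgals3, the secreted lectin galectin-3, was measured at 1.00, 2.19, 1.51 and 3.72 CPM in the CB-100 group, against 10.3, 4.33 and 1.97 CPM in the sham group. Sham replicates 1 and 2 lay above each CB-100 library, but sham replicate 3 fell below CB-100 replicates 2 and 4. Lgals3 had a log2 change of -1.36 (SE 0.59, 95% interval -2.71 to -0.02, unadjusted p = 0.047, edgeR adjusted p = 0.20). It was -0.56 without sham replicate 1 (edgeR adjusted p = 0.60).

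Of the 8 tested members, 0 had groups that did not overlap, against 23.3% of all tested genes. Estimates were below 0 for 7 of 8, against 47.3% of all tested genes, and the median log2 change was -0.35, against 0.03 over all genes tested. The values are also given by sex, a split chosen after the values were seen, with 1 male in each group and so no test among males. In females Gpnmb was at 0.70 to 1.74 CPM in 3 CB-100 mice and 2.82 to 11.2 CPM in 2 sham mice, and at 3.52 CPM in the CB-100 male and 4.70 CPM in the sham male. Lgals3 was at 1.00 to 3.72 CPM in CB-100 females and 4.33 to 10.3 CPM in sham females, and at 1.51 CPM in the CB-100 male and 1.97 CPM in the sham male. Lower values without overlap in both sexes were found for 2 of 8 members, against 14.8% of all tested genes, and higher ones for 0 of 8, against 14.1%, and nothing is read from these counts. The 5 females alone gave Gpnmb a log2 change of -2.60 (edgeR adjusted p = 0.19).

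**Figure D2:**
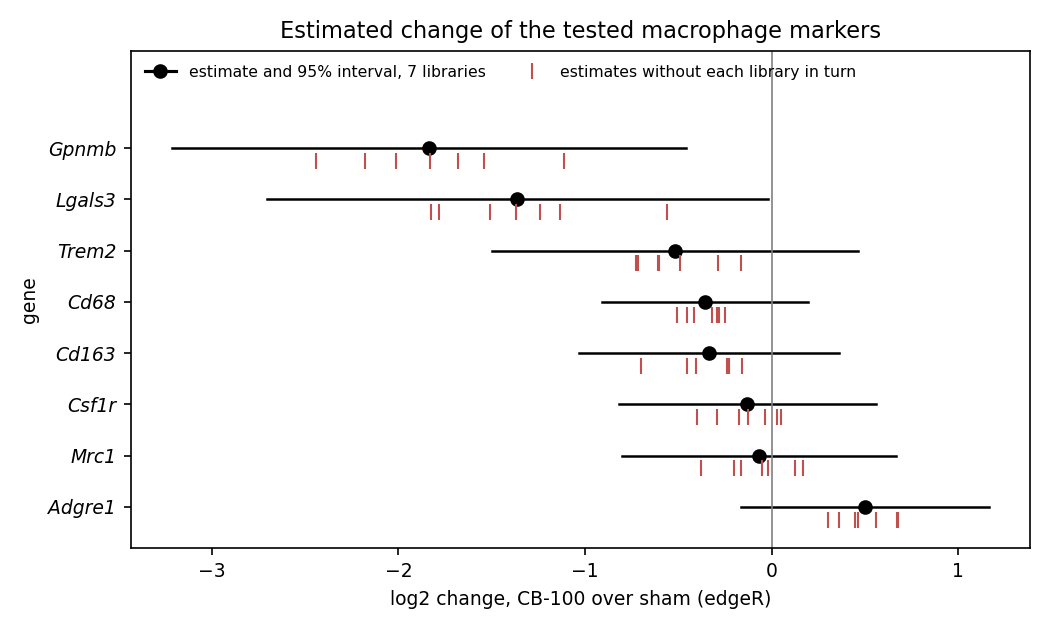
Log2 change of the 8 tested markers, CB-100 over sham, from edgeR. Black points and lines are the estimate and its 95% interval over 7 libraries, and red ticks are the estimates when each library is left out in turn. Gpnmb and Lgals3 have the widest intervals, and their estimates nearest 0 are those without sham replicate 1, -1.11 and -0.56.

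The spread between mice differed among the markers. The coefficient of variation between replicates that edgeR fitted was 54.4% for Gpnmb and 53.6% for Lgals3, 35.2% for Trem2 and 23.9% to 30.8% for Cd68, Adgre1, Cd163, Csf1r and Mrc1, against a median of 24.6% over all tested genes.

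Within groups, the surface receptors of resident macrophages varied together. With group means removed, log2 CPM of Adgre1, Mrc1, Cd163 and Csf1r had Pearson r of 0.76 to 0.95 in their 6 pairs over 7 libraries, which share their sequencing depth and scaling. Each of these 4 genes was highest in replicate 2 of its group, by 0.53 to 0.84 above the group mean of log2 CPM in CB-100 mice and by 0.30 to 0.41 in sham. Gpnmb had an r of 0.88 with Trem2, 0.48 with Cd68, 0.41 with Csf1r, 0.20 with Adgre1, 0.17 with Mrc1 and -0.16 with Cd163. Trem2 had an r of 0.70 with Csf1r, 0.51 with Mrc1, 0.45 with Adgre1 and 0.14 with Cd163. For Cd68 the r was 0.72 with Csf1r, 0.50 with Mrc1, 0.49 with Adgre1 and 0.36 with Cd163. Lgals3 had an r of -0.35 to 0.53 with the other 7. CB-100 replicate 2 had the fewest counts of all libraries, 10815101.

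**Figure D3:**
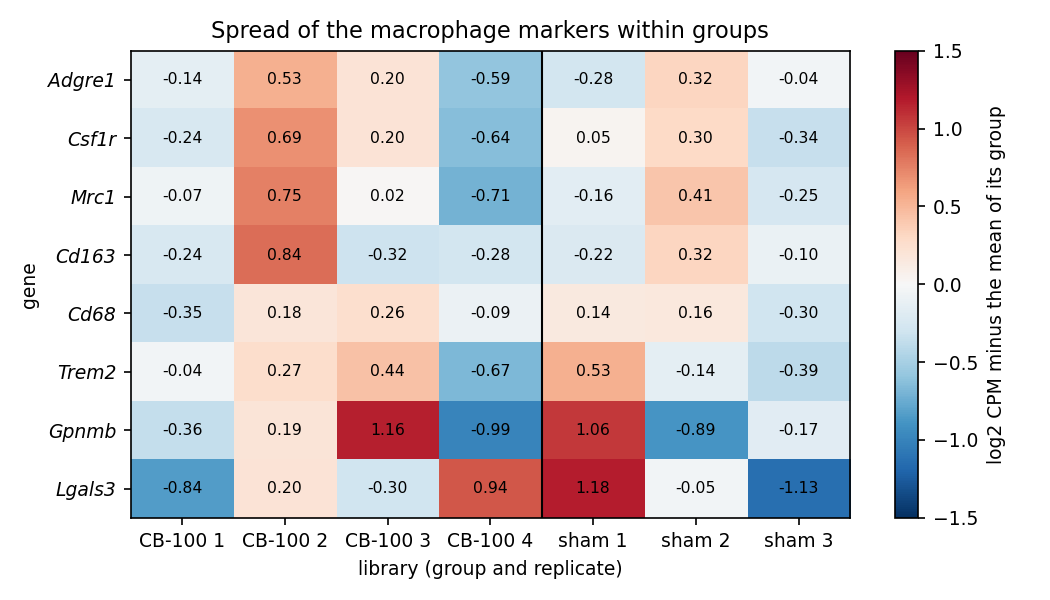
Deviation of each library from the mean of its group, in log2 CPM, for the 8 tested markers, with CB-100 left of the line and sham right of it. Red is above the group mean and blue below. Adgre1, Csf1r, Mrc1 and Cd163 are above the mean in replicate 2 of both groups, and Gpnmb and Lgals3 are both above it, by 1.06 and 1.177, in sham replicate 1.

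Levels were also set against other myeloid transcripts of the same library. Gpnmb came to 0.79%, 0.70%, 2.34% and 0.39% of the summed CPM of 20 pan-myeloid genes, none of them a member, in CB-100, against 4.70%, 1.64% and 3.46% in sham. Lgals3 came to 0.69%, 0.89%, 1.00% and 2.10% in CB-100, against 4.31%, 2.52% and 1.45% in sham. The mean log2 ratio was lower in CB-100 by 1.82 for Gpnmb and by 1.23 for Lgals3, given with no test, and both groups overlapped in each gene. With a pan-myeloid score as covariate the log2 changes in edgeR were -1.84 for Gpnmb (edgeR adjusted p = 0.15) and -1.33 for Lgals3 (edgeR adjusted p = 0.24).

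Per kilobase of annotated exon, and leaving out Marco, which was under its count limit in 7 of 7 libraries, the members ranged from Csf1r, at 4.83 ± 1.93 CPM per kb in CB-100 and 5.27 ± 1.15 CPM per kb in sham (SD, n = 4 and 3), to Itgax, at 0.093 ± 0.034 CPM per kb in CB-100 and 0.088 ± 0.030 CPM per kb in sham. Csf1r, Mrc1, Cd68 and Cd163 took the 4 highest places in both groups, and neighbours among them did not differ beyond their SD. In CB-100 Adgre1 came next (2.29 ± 0.74 CPM per kb), then Lgals3 (1.13 ± 0.64 CPM per kb), and Gpnmb followed at 0.27 ± 0.19 CPM per kb, apart from Lgals3 by more than both SDs. In sham the order went on with Lgals3 (2.97 ± 2.30 CPM per kb), Adgre1 (1.61 ± 0.35 CPM per kb) and Gpnmb (0.96 ± 0.67 CPM per kb), with overlapping spreads. Trem2 came after Gpnmb in both groups, at 0.17 ± 0.060 CPM per kb in CB-100 and 0.24 ± 0.093 CPM per kb in sham.

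Other macrophage genes showed 1 call. Of 22 listed genes of lipid-associated macrophages 17 were tested, and 1 fell, against 2.28% of all genes, and 0 rose, against 1.42%. At an unadjusted p under 0.05 there were 5, against 23.9% of all genes. Groups did not overlap for 1 higher and 3 lower genes, against 23.3% of all genes in either direction. The list had 7 estimates above 0 and 10 below and a median log2 change of -0.16. The same shares over all genes belong beside the counts of the lists that follow. The gene that fell was Cd63, a tetraspanin of lysosomes and exosomes made by most cell types. It stood at 13.7, 29.6, 21.6 and 24.4 CPM in CB-100, against 43.7, 45.7 and 50.4 CPM in sham, without overlap (log2 change -1.06, SE 0.23, edgeR adjusted p = 0.042). Its count is non-whole in 7 of 7 libraries and uncertain. Leaving out CB-100 replicates 1, 2, 3 and 4 gave an edgeR adjusted p of 0.055, 0.063, 0.076 and 0.053, and leaving out sham replicates 1, 2 and 3 gave 0.099, 0.083 and 0.15, so the call was lost without any single library. Ctsb, the lysosomal protease cathepsin B, had a log2 change of -0.84 (edgeR adjusted p = 0.058) and Cstb, an inhibitor of such proteases, one of -0.94 (edgeR adjusted p = 0.083), both with groups that did not overlap. Hvcn1, a proton channel, had one of 0.87 (edgeR adjusted p = 0.19), also without overlap, and Ctsl, another lysosomal protease, one of -0.58 (edgeR adjusted p = 0.17) with overlap. Counts of Ctsb, Ctsl and Hvcn1 include non-whole values and are uncertain. The 5 genes of the list not tested, Spp1, Mmp12, Atp6v0d2, Dcstamp and Cd300lf, had too few counts. Lpl, Cd36 and Fabp4, which adipocytes also make, supplied most of the summed level of the list. Ctsb averaged 587 CPM in CB-100 mice and 1054 CPM in sham, far above Csf1r at 27.9 and 30.5 CPM. Which cells carried the RNA of Ctsb, Cstb and Ctsl was not tested.

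Pan-myeloid genes had 0 calls of 18 tested (3 at an unadjusted p under 0.05), with 6 estimates above 0 and 12 below and a median log2 change of -0.06. The smallest p belonged to Cx3cr1, the fractalkine receptor of monocytes and resident macrophages, with 1.87 ± 0.97 CPM in CB-100 mice and 0.47 ± 0.30 CPM in sham mice (log2 change 1.93, edgeR adjusted p = 0.096), and to Ptprc, the leukocyte antigen CD45, with 14.6 ± 1.99 CPM in CB-100 mice and 10.1 ± 1.42 CPM in sham mice (log2 change 0.53, edgeR adjusted p = 0.11). Both genes overlap other gene models and are uncertain. The summed level of the list was 144 to 247 CPM in CB-100 mice and 136 to 238 CPM in sham, in overlapping ranges.

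Resident and perivascular macrophage genes had 0 calls of 15 tested (1 at an unadjusted p under 0.05), with 12 estimates above 0 and 3 below. Their median log2 change was 0.48, and it was -0.02 without CB-100 replicate 2. Among the surface receptors in the marker set, Adgre1 was at 0.50, Mrc1 at -0.07, Csf1r at -0.13 and Cd163 at -0.34, each with an interval that included 0. Stab1, a scavenger receptor also made by endothelium, gave 0.58 (edgeR adjusted p = 0.12) and Gas6, a ligand that bridges dying cells to macrophages, 0.68 (edgeR adjusted p = 0.23), both uncertain for an overlapping gene. Complement C1q and lysosomal genes had 0 calls of 13 (0 at an unadjusted p under 0.05) with 4 estimates above 0 and 9 below and a median of -0.17. Lamp2, a lysosomal membrane protein, gave -0.30 and Lgmn, a lysosomal protease, -0.22.

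Of 17 inflammatory macrophage genes 9 were tested and 0 passed (2 at an unadjusted p under 0.05). Nos2, the inducible nitric oxide synthase, lay just outside the threshold, with 13.2 ± 1.79 CPM in CB-100 mice and 7.36 ± 1.40 CPM in sham mice, without overlap (log2 change 0.85, SE 0.20, edgeR adjusted p = 0.051), and Cd38, an NAD-consuming enzyme, gave 0.46. The list had 5 estimates above 0 and 4 below, with Il1b at -0.43 and Cd80 at -0.26, and a median of 0.20. Tnf, Il6 and Ccl2 had too few counts to be tested. Among 11 tested growth factors, regulators and recruitment genes 0 passed (3 at an unadjusted p under 0.05), with 7 estimates above 0 and 4 below. Csf1, the ligand of Csf1r, averaged 19.4 ± 3.02 CPM in CB-100 mice and 12.9 ± 3.10 CPM in sham mice, without overlap (log2 change 0.58, edgeR adjusted p = 0.13), and Nr1h3, the oxysterol receptor LXR alpha, gave 0.60 (edgeR adjusted p = 0.11). Csf2 had 0 counts in 7 of 7 libraries.

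**Figure D4:**
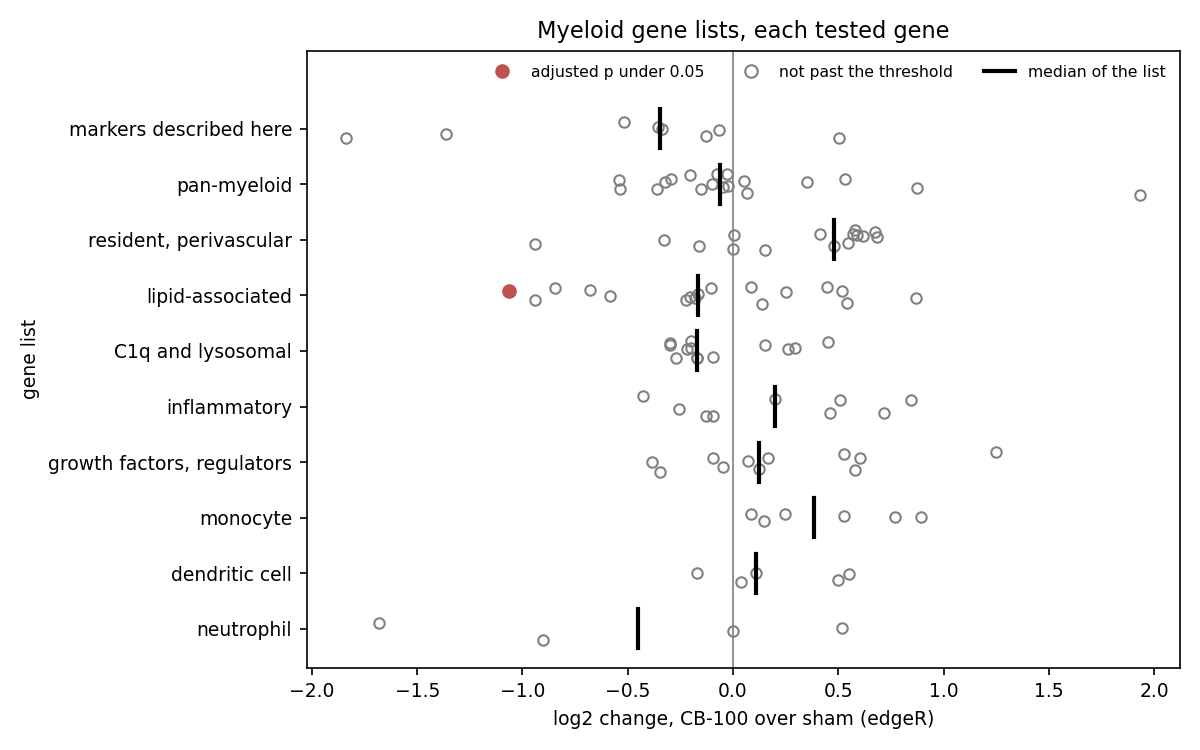
Log2 change, CB-100 over sham, of each tested gene in the marker set and in 9 other myeloid gene lists. Open circles did not pass an edgeR adjusted p of 0.05, the filled circle (Cd63) did, and black bars are list medians. Gpnmb and Lgals3 are the points at -1.84 and -1.36 in the top row, whose median is -0.35.

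Genes of other cells that could carry these transcripts had 0 calls as well. Dendritic cell genes had 0 calls of 5 tested (1 at an unadjusted p under 0.05), with 4 estimates above 0 and 1 below. The smallest p belonged to Zbtb46 (log2 change 0.50) and Dpp4 (0.55), and Flt3, Xcr1 and Ccr7 did not pass the filter. Zbtb46 averaged 53.5 CPM in CB-100 mice and 38.0 CPM in sham, far above Flt3 (0.27 and 0.14 CPM) and Xcr1 (0.37 and 0.07 CPM). Which cells carried the RNA of Zbtb46 and Dpp4 was not tested. Monocyte genes had 0 calls of 6 (0 at an unadjusted p under 0.05), with 6 estimates above 0. With no filter on low counts, 6 estimates of 9 were above 0 and 3 below. Chil3, with too few counts for the test, averaged 0.16 CPM in CB-100 mice and 0.52 CPM in sham, without overlap. Fn1 (log2 change 0.77) and Ccr2 (0.53) had the smallest p of that list, and Nr4a1 had its largest estimate (0.89). Fn1 averaged 125 CPM in CB-100 mice and 73.2 CPM in sham, Nr4a1 152 and 82.0 CPM, and Ccr2 4.66 and 3.22 CPM. Which cells carried the RNA of this list was not tested. Neutrophil genes had 0 of 4 (1 at an unadjusted p under 0.05), with S100a9 averaging 0.90 ± 0.48 CPM in CB-100 mice and 2.98 ± 1.25 CPM in sham mice (log2 change -1.68, edgeR adjusted p = 0.069) and Cxcr2 at -0.90, while Mmp9 was at 0.52 and Csf3r at -0.00063. That is 1 estimate above 0 and 3 below. The neutrophil list summed to 7.03 to 12.5 CPM in CB-100 mice and 11.05 to 15.4 CPM in sham, in overlapping ranges, and Ly6g was at 0 in 6 of 7 libraries. S100a8 averaged 0.25 CPM in CB-100 mice and 0.96 CPM in sham, and Retnlg 0.12 and 0.86 CPM. Both were without overlap and had too few counts for the test. With no filter on low counts, 2 estimates of 10 were above 0 and 8 below. S100a9 and Retnlg then passed in edgeR, where 914 of all 31875 genes did. Whether neutrophil content had a part in the estimates of Gpnmb and Lgals3 was not tested. Of the melanocyte markers Tyr was at 0 in 7 of 7 libraries and Mlana in 4 of 7, and with the Schwann cell genes 0 of 4 tested passed (2 at an unadjusted p under 0.05), with Mbp, a myelin protein gene, at 0.51, and 4 of 4 estimates were above 0. That list summed to 68.9 to 82.8 CPM in CB-100 mice and 48.0 to 56.7 CPM in sham, the direction opposite to that of the Gpnmb estimate.

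T and NK cell genes had 0 calls of 4 (2 at an unadjusted p under 0.05), with Trac at 2.32 and Cd3e at -1.38 on the log2 scale and 2 above 0 and 2 below. Trac rests on few counts, 54 in the CB-100 libraries together and 9 in the sham libraries together, and Cd3e overlaps other gene models and is uncertain. B and plasma cell genes had 0 of 3 (1 at an unadjusted p under 0.05), with Ighm at 1.47 and Jchain at 0.59 and 3 of 3 above 0. Mast cell and eosinophil genes had 0 of 4 (0 at an unadjusted p under 0.05), with Kit at -0.73 and Cpa3 at 0.69 and 3 above 0 and 1 below. Adipocyte genes had 0 of 10 (4 at an unadjusted p under 0.05), with Adipoq, the adiponectin gene, at -0.91 and Cfd, the adipsin gene, at -1.5. Of these 10 estimates 3 were above 0 and 7 below, with Ucp1 at 1.99 and Lep, the leptin gene, at 1.66. They summed to 8464 to 10290 CPM in CB-100 mice and 10587 to 16322 CPM in sham. Endothelial genes had 0 of 8 (1 at an unadjusted p under 0.05), with Tie1 at 0.57 and Emcn at 1.13 and 7 estimates above 0 and 1 below, and fibroblast genes 0 of 8 (3 at an unadjusted p under 0.05), with Col3a1 at 1.87 and Dcn at -0.74 and likewise 7 above 0 and 1 below. Skeletal muscle genes had 0 of 8 (0 at an unadjusted p under 0.05), with Mylpf at -1.11 and Myh4 at -0.96 and 8 of 8 estimates below 0, and summed to 291 to 2183 CPM in CB-100 mice and 798 to 1804 CPM in sham. The part of these cell types in the values of the macrophage markers was not tested.

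Over the 7 libraries, the genes outside the marker set whose log2 CPM followed Gpnmb most closely, of 15407 with a mean of at least 1 CPM, included Wbp11, Ep300, Nfrkb and the antisense RNA Gm12758, each with a Pearson r of 0.98 or 0.99. Their own changes were small, from -0.20 for Ep300 to -0.30 for Nfrkb, apart from Gm12758 at -1.39, and 0 of these 4 passed in edgeR. All of them but Nfrkb overlap another gene model or have non-whole counts and are uncertain. Among the markers, Trem2 came nearest to Gpnmb, with r = 0.87, and Adgre1 was farthest, with r = -0.28. These values describe 7 points and carry no test.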

How the data were processed

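RNA sequencing of brown adipose tissue from 7 mice was used. Per the labels' protocols, STAR 2.7.9a placed the reads on the primary assembly of Ensembl release 101. FeatureCounts 2.0.3, Salmon 1.5.2, edgeR and limma are named without a role, per the submitters' processing notes. The authors deposited expected counts per gene, not normalized, and 287 repeated lines were removed. How reads were assigned to genes, by strand or not, is not stated, so reads of overlapping genes cannot be told apart. Coordinates and exon lengths came from GENCODE release M21 (GRCm38), and promoters from RefSeq.

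Counts were rounded, filtered by edgeR's filterByExpr on the group, scaled by TMM and tested by quasi-likelihood (edgeR 4.0.16, R 4.3.3; robust, group only), with p-values two-sided and adjusted over 16823 genes. The SE is the log2 change over the square root of F. Log2 CPM used a prior count of 2. The script was tested on simulated data. DESeq2 1.42.0 and limma 3.58.1 were alternatives, with others of scaling, filter, covariate and library set. Animal codes are not shared between groups, so nothing was paired. Beyond those codes the labels do not say that samples are separate mice, and the p-values rest on sample spread alone, which may be technical. All 10 members are named, with up to 4 called genes of each of 17 other lists or the 2 with the smallest p where none was called. Other genes were named after their values were seen. Of the genes chosen by these rules, 2 are not reported here. Of 33 list genes so chosen, 16 overlap another gene or have non-whole counts. Members and lists were chosen with earlier results of these data known.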

Additional observations from a re-analysis of the deposited data

Results flagged for a closer look

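Dixon's rule was applied to the 4 CB-100 libraries for 27 values (10 marker levels and 17 list sums), and it picks out about 1 in 20 by chance. The sham group, with 3 libraries, was not examined. In 5 cases 1 CB-100 library stood far from the other 3. Cd163 was at 27.9 CPM in CB-100 replicate 2, above the other 3 libraries, and Marco at 0.143 CPM in CB-100 replicate 1, which is 2 counts. Endothelial genes summed to 1642.5 CPM in CB-100 replicate 4, the highest of the group, and melanocyte and Schwann cell genes to 68.9 CPM in the same library, the lowest of the group. Skeletal muscle genes summed to 2183 CPM in CB-100 replicate 3, the highest of the group.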

How the results depend on the processing

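Of 152 alternative estimates for the 8 tested markers, 147 kept their direction and side of the threshold, 1 passed it (Gpnmb in DESeq2) and 4 changed sign. The changes of sign were in leaving out CB-100 replicate 4 or sham replicate 2, and the log2 change ran over all libraries left out from -0.38 to 0.17 for Mrc1 and from -0.40 to 0.053 for Csf1r, with 0.13 and 0.053 without CB-100 replicate 4 and 0.17 and 0.027 without sham replicate 2. Markers called numbered 0 in all settings but DESeq2, where there was 1. Of all genes, edgeR called 622, and 8 to 610 without each library in turn. DESeq2 called 1968 and limma voom 1150. The count was 364 with a pan-myeloid score as covariate, 238 with sex and 9 with a skeletal muscle score, 9 when tested against a fold change of 1.5, and 0 in the 5 females alone (2578 at an unadjusted p under 0.05), the last chosen after seeing the data. Of the genes of the other lists, 144 were tested in the main fit and 1 was called (Cd63), against 3.70% of all genes. The count was 16 in DESeq2, against 11.7% of all genes, and 13 in limma voom, against 6.84%. It was 2 with upper quartile scaling and 11 with no filter, where 914 of all 31875 genes were called. It was 3 with at least 1 CPM in 3 libraries or without mitochondrial, 7SL and 7SK genes. It was 0 to 5 without each library, and 0 with a muscle score or sex as covariate, against a fold change of 1.5 and in females. The cause was not tested. Counts per library limit Trem2 (10 to 33), Itgax (3 to 13) and Marco (0 to 2).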
